A study of Mus musculus with 6 samples.

Results

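The 9 genes described here encode the core of classical nonhomologous end joining and the proteins that protect broken DNA ends during immunoglobulin class switching. They were chosen by name, and are Xrcc6, Xrcc5, Prkdc, Dclre1c, Lig4, Xrcc4, Nhej1, Trp53bp1 and Rif1. Each matched 1 of the 39179 Ensembl gene identifiers measured. Their mRNA was measured by RNA-Seq in germinal center (GC) B cells and in resting B cells, called naive here, of the Peyer's patches, which are lymphoid organs in the wall of the gut. GC B cells were sorted as Fas+GL7+ and resting B cells as Fas-GL7- B cells, both from WT C57BL/6 female littermates aged 12 wk that carried no transgene or deletion named by the labels. Each group held 3 replicates, each a pool of 5 mice, so that differences among single mice were not measured.

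Class switching replaces the constant region of an antibody. Breaks are made in the switch regions of the heavy chain locus, and the broken ends of a pair of switch regions are then joined. In classical end joining, the Ku70 and Ku80 subunits form a ring on each end and recruit DNA-PKcs and the nuclease Artemis, and DNA ligase IV, held by XRCC4 and helped by XLF, seals the strands. 53BP1 assembles on chromatin beside the break and, through RIF1 and the shieldin complex, keeps the ends from being trimmed to single strands, which would favor other repair pathways.

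Levels are in TPM, the share of a transcript in a total of 1000000, obtained by rescaling the deposited FPKM (fragments per kilobase and mapped fragments) of each pool. Fold changes are differences in log2(TPM + 1), GC minus naive, and understate the change of weakly expressed genes. A gene was called at a Benjamini-Hochberg adjusted p under 0.05 in limma, fitted over the 12785 genes that reached 1 TPM in 3 or more pools. All 9 end joining genes passed that filter, and each was above 1 TPM in all 6 pools. TPM is a share of the RNA in a pool, so that fewer cells of a type and less RNA per cell cannot be told apart.

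The sorted cells carried the markers of their labels. All 5 GC markers tested, Fas among them, were higher in the GC pools, with summed levels of 1125 to 1159 TPM against 51.4 to 57.2 TPM in the naive pools. All 4 naive markers tested were higher in the naive pools, and the 5 B cell markers summed to 3884 to 3931 TPM in GC and 5783 to 5913 TPM in naive pools, with 4 called as higher in naive and 1 as higher in GC. The 4 plasma cell markers summed to 130.6 to 134.9 TPM in GC and 191.9 to 212.0 TPM in naive pools, with 3 called as higher in naive and 1, Prdm1, as higher in GC. Summed epithelial markers (8 genes, none at 0 in every pool) were 60.3 to 131.9 TPM in GC and 181.2 to 217.4 TPM in naive pools, and 5 myeloid markers summed to 0.836 to 2.31 TPM and 3.96 to 7.07 TPM. T cell markers summed to 1.65 to 3.51 TPM and 1.72 to 2.46 TPM. All 10 proliferation genes tested were higher in GC pools, with a median log2 fold change of 4.53. Apart from the T cell markers, whose ranges overlapped, these marker sums differed between the groups compared below, and their part in the results was not tested.

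Of the 9 end joining genes, 5 were higher in GC B cells (Lig4, Rif1, Xrcc6, Prkdc and Trp53bp1), 1 was higher in naive B cells (Xrcc4), and 3 were not called (Xrcc5, Nhej1 and Dclre1c). These 6 calls lie near the background, since limma called 65.6% of all genes tested, 35.5% as higher in GC and 30.1% as higher in naive B cells. GC and naive pools did not overlap for 7 of the 9 genes, against 70.7% of all genes tested. The median log2 fold change of the 9 genes was 0.35, and that of all genes tested was 0.03. The number of calls alone therefore did not set these genes apart, but they differed among themselves. Lig4, Rif1, Xrcc6 and Prkdc were called in the same direction under all 15 alternative settings run.

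**Figure D1:**
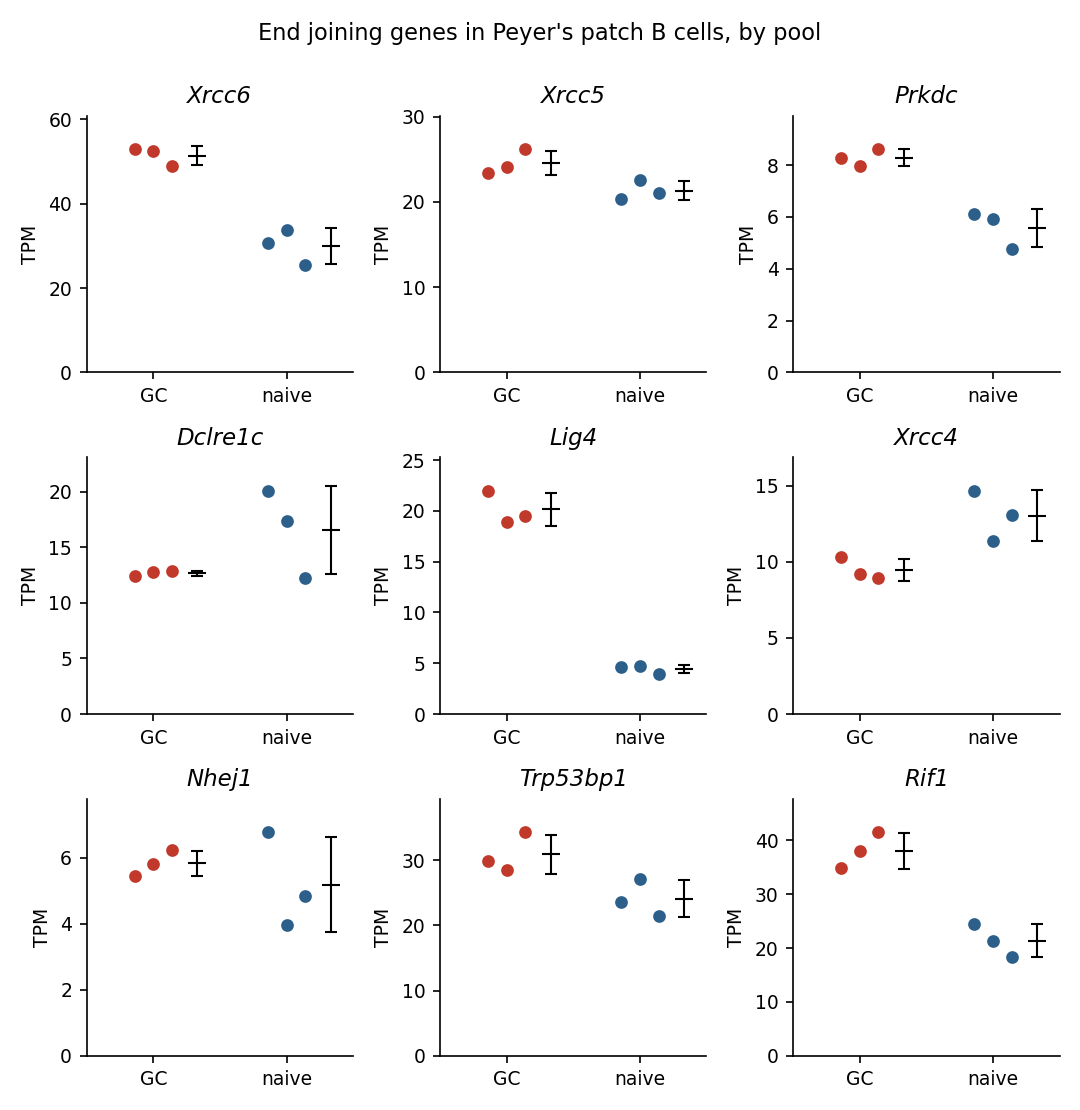
Level of each of the 9 end joining genes in TPM (vertical axis) in each of the 3 GC and 3 naive pools, with points for pools and bars for the mean and SD. Lig4 stands at 18.9 to 22.0 TPM in GC pools and at 3.96 to 4.74 TPM in naive pools, whereas the pools of Nhej1 and Dclre1c overlap.

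Of the subunits of the Ku ring, Xrcc6 rose and Xrcc5 was not called. Xrcc6, which encodes Ku70 (ENSMUSG00000022471, chromosome 15, 81987833 to 82040085, plus strand, GRCm38.p6), stood at 52.9, 52.4 and 48.9 TPM in GC replicates 1, 2 and 3 and at 30.6, 33.8 and 25.6 TPM in naive replicates 1, 2 and 3. Every GC pool lay above every naive pool, and Xrcc6 was the most abundant of the 9 mRNAs in both populations. Its log2 fold change was 0.77 (SE 0.11, 95% interval 0.51 to 1.02, limma adjusted p = 0.000847). Xrcc5, which encodes Ku80 (ENSMUSG00000026187, chromosome 1, 72307417 to 72394953, plus strand), stood at 23.4, 24.1 and 26.2 TPM in GC and at 20.4, 22.6 and 21.0 TPM in naive pools. These pools did not overlap either, but the groups lay close together, with a log2 fold change of 0.19 (SE 0.076, interval 0.01 to 0.38) that was not called (limma adjusted p = 0.0608) and was 0.046 after correction for the base composition and length of transcripts.

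As both subunits are needed for the ring, their mRNA ratio was taken within each pool, where it does not depend on the scaling of the pool. The ratio of Xrcc5 to Xrcc6 was 0.443, 0.459 and 0.535 in GC and 0.666, 0.669 and 0.822 in naive pools. All GC ratios were below all naive ratios, and the mean log2 ratio differed by -0.58. An exact two-sided permutation test over pools gave p = 0.1, the smallest value that 3 pools against 3 allow, so that no ratio in these data could pass 0.05. All 5 ratios tested reached this smallest exact permutation p, 0.1 also after Benjamini-Hochberg adjustment over the 5. How often the ratios of other gene pairs separate the groups was not computed. Of all single genes tested, 70.7% did not overlap, so that separation alone does not set these pairs apart.

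Of the kinase and the nuclease that process the ends, the kinase gene rose and the nuclease gene was not called. Prkdc, which encodes DNA-PKcs, the kinase recruited by Ku (ENSMUSG00000022672, chromosome 16, 15637444 to 15842239, plus strand), stood at 8.28, 7.97 and 8.61 TPM in GC and at 6.10, 5.91 and 4.75 TPM in naive pools. The groups did not overlap, and Prkdc rose with a log2 fold change of 0.50 (SE 0.12, interval 0.22 to 0.78, limma adjusted p = 0.00836). Dclre1c, which encodes Artemis (ENSMUSG00000026648, chromosome 2, 3424061 to 3474211, plus strand), stood at 12.4, 12.7 and 12.8 TPM in GC and at 20.1, 17.3 and 12.3 TPM in naive pools. The 3 GC pools had a coefficient of variation of 1.71%, whereas naive replicate 3 lay below all GC pools and the other naive pools lay above them. Dclre1c was not called (log2 fold change -0.34, SE 0.17, interval -0.75 to 0.08, limma adjusted p = 0.128). Without naive replicate 3 its log2 fold change was -0.52 and it was called (limma adjusted p = 0.00496), and without naive replicate 1 its log2 fold change was -0.19. With all pools kept it was also called under quantile normalization (-0.41, limma adjusted p = 0.0467) and when values were corrected for the GC content and length of transcripts (-0.43, 0.0159). The ratio of Prkdc to Dclre1c was 0.667, 0.625 and 0.672 in GC and 0.304, 0.341 and 0.387 in naive pools, a difference of 0.93 in mean log2 ratio with no overlap.

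The genes of the ligation complex showed the largest difference and, in the main fit, the only call as lower in GC. Lig4, which encodes DNA ligase IV (ENSMUSG00000049717, chromosome 8, 9970020 to 9977680, minus strand), stood at 22.0, 18.9 and 19.5 TPM in GC and at 4.59, 4.74 and 3.96 TPM in naive pools. The mean of 20.1 ± 1.62 TPM (SD, n = 3) in GC was 4.55 times that of 4.43 ± 0.410 TPM (SD, n = 3) in naive B cells. Its log2 fold change of 1.96 (SE 0.10, interval 1.71 to 2.21, limma adjusted p = 9.83e-06) was the largest of the 9, and its interval lay above those of the other 8 genes. By mean level, Lig4 was the least abundant of the 9 mRNAs in naive B cells and ranked 5 of 9 in GC B cells. Its naive pools overlapped those of Nhej1, which was lower than Lig4 in naive replicate 2 (3.96 against 4.74 TPM).

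Xrcc4, the scaffold that binds and stabilizes DNA ligase IV (ENSMUSG00000021615, chromosome 13, 89848914 to 90089608, minus strand), went the other way. It stood at 10.3, 9.18 and 8.92 TPM in GC and at 14.7, 11.4 and 13.1 TPM in naive pools, and every GC pool lay below every naive pool. Its log2 fold change was -0.42 (SE 0.12, interval -0.70 to -0.14, limma adjusted p = 0.0183). The call was lost without GC replicate 2 (limma adjusted p = 0.0551), without GC replicate 3 (0.0584) or without naive replicate 1 (0.0565), while the log2 fold change remained between -0.52 and -0.34 under all alternatives. Nhej1, which encodes the XRCC4-like factor XLF (ENSMUSG00000026162, chromosome 1, 74967346 to 75125226, minus strand), stood at 5.46, 5.83 and 6.23 TPM in GC and at 6.78, 3.96 and 4.84 TPM in naive pools. Its groups overlapped, and with a log2 fold change of 0.17 (SE 0.18, interval -0.27 to 0.60, limma adjusted p = 0.445) no direction could be given. The log2 fold change was 0.34 without naive replicate 1 and 0.019 without naive replicate 2, and Nhej1 was not called under any alternative run.

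The ratio of the scaffold to its ligase differed more than any other ratio tested. Xrcc4 to Lig4 was 0.470, 0.485 and 0.457 in GC and 3.20, 2.40 and 3.31 in naive pools. In GC B cells the ligase mRNA was thus the more abundant of the pair in every pool, and in naive B cells the scaffold mRNA was. The ratio was on average 6.25 times higher in naive B cells, a log2 difference of -2.64 (GC minus naive). The ratio of Xrcc4 to Nhej1 was 1.89, 1.57 and 1.43 in GC and 2.17, 2.87 and 2.71 in naive pools, a log2 difference of -0.66.

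**Figure D2:**
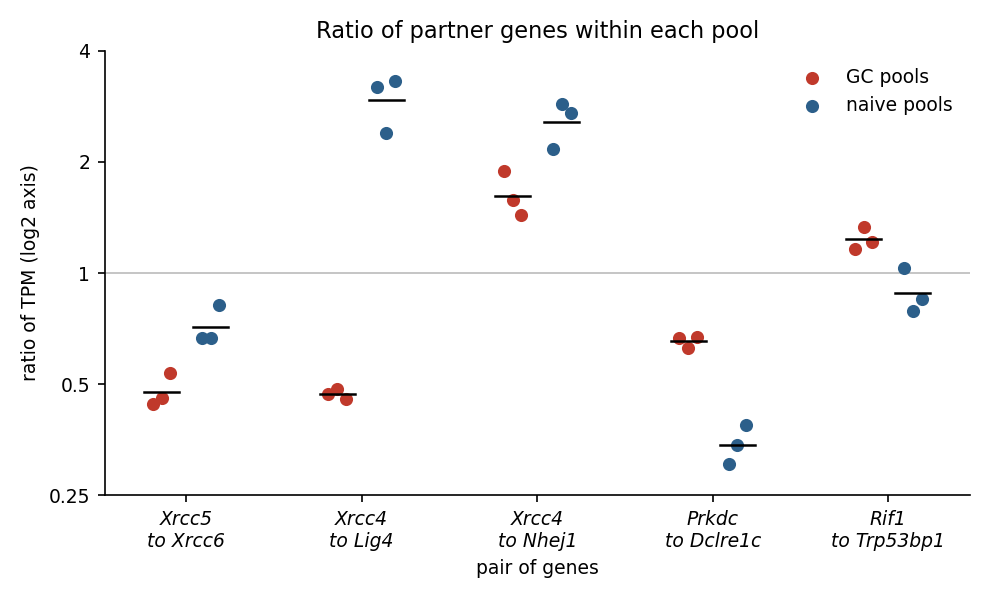
Ratio of 2 end joining mRNAs within each pool (vertical axis, log scale) for the 5 pairs, with 1 point for each of the 3 GC and 3 naive pools and lines for the group means on the log scale. Xrcc4 to Lig4 is the pair with the widest separation, at 0.457 to 0.485 in GC and 2.40 to 3.31 in naive pools, and no pair overlaps between the groups. Ratios of other gene pairs were not computed.

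The genes that protect the ends both rose. Rif1, which encodes the effector that binds phosphorylated 53BP1 (ENSMUSG00000036202, chromosome 2, 52072815 to 52126769, plus strand), stood at 34.8, 38.1 and 41.5 TPM in GC and at 24.4, 21.4 and 18.3 TPM in naive pools. The groups did not overlap, and the log2 fold change was 0.81 (SE 0.12, interval 0.52 to 1.10, limma adjusted p = 0.00112). Trp53bp1, which encodes 53BP1 (ENSMUSG00000043909, chromosome 2, 121194835 to 121296354, minus strand), stood at 29.9, 28.5 and 34.3 TPM in GC and at 23.6, 27.2 and 21.5 TPM in naive pools. The GC pools lay above the naive pools by a narrow margin, with a log2 fold change of 0.35 (SE 0.11, interval 0.08 to 0.62, limma adjusted p = 0.0298). The call of Trp53bp1 was lost without GC replicate 1 (limma adjusted p = 0.0599), GC replicate 3 (0.0901), naive replicate 1 (0.0776) or naive replicate 3 (0.0782). It was also lost with the replicate number as a block (0.0747 in limma) and with that block and the correction for base composition and length (0.0635), in all 6 of 15 alternatives. The ratio of Rif1 to Trp53bp1 was 1.16, 1.33 and 1.21 in GC and 1.03, 0.787 and 0.851 in naive pools, a log2 difference of 0.48 without overlap.

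**Figure D3:**
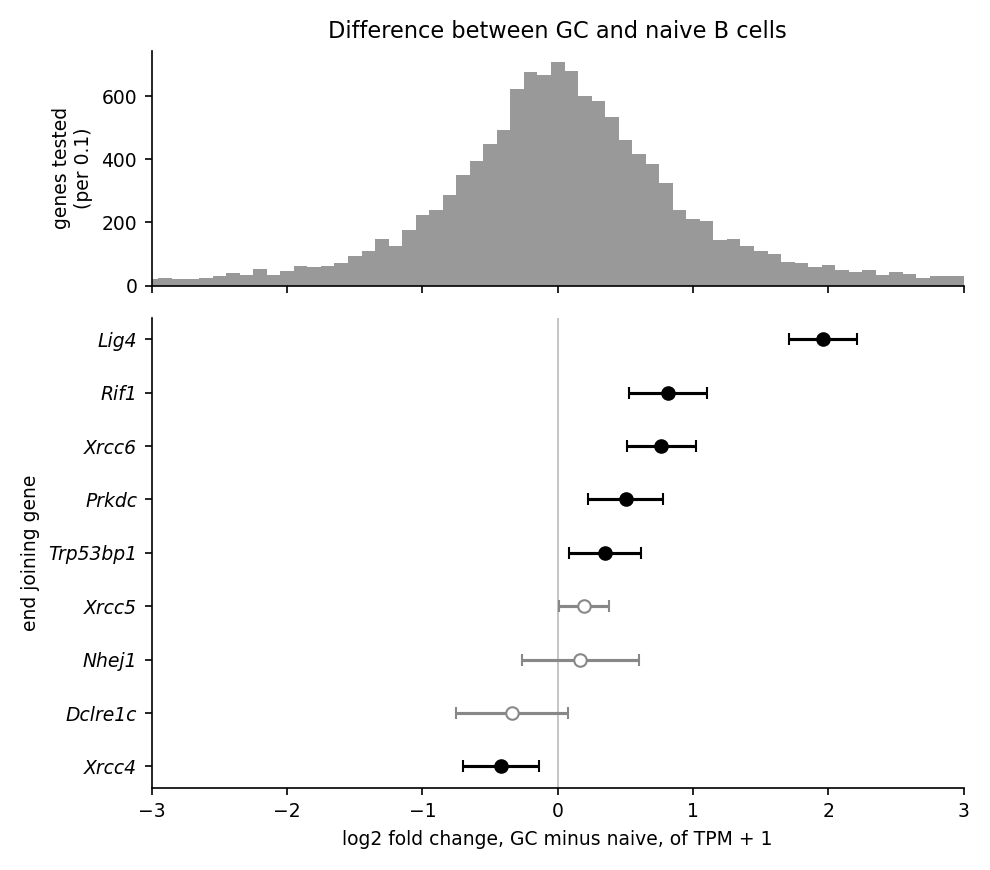
Log2 fold change (GC minus naive, of TPM + 1) of the 9 end joining genes with 95% intervals from limma (filled, called; open, not called), under a histogram of the genes tested, drawn between -3 and 3. Lig4 at 1.96 stands apart from the other 8 genes, which lie between -0.42 and 0.81.

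The 9 mRNAs together made up 199.5, 197.7 and 207.0 TPM in GC replicates 1 to 3 and 151.2, 148.3 and 125.3 TPM in naive replicates 1 to 3. Within this sum, Lig4 took 10.0% ± 0.877 (SD, n = 3) in GC and 3.13% ± 0.0835 in naive B cells. Xrcc4 took 4.71% ± 0.436 and 9.27% ± 1.45, and Dclre1c took 6.29% ± 0.139 and 11.6% ± 1.74. Prkdc took 4.11% ± 0.0712 in GC and 3.94% ± 0.130 in naive B cells.

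Among GC pools the order of levels was clear. From the highest it ran Xrcc6, Rif1, Trp53bp1, Xrcc5, Lig4, Dclre1c, Xrcc4, Prkdc and Nhej1, and no neighbors in this order overlapped between pools. Among naive pools the order ran Xrcc6, Trp53bp1, Rif1, Xrcc5, Dclre1c, Xrcc4, Prkdc, Nhej1 and Lig4, and the pools of Xrcc5 and Dclre1c, and those of Xrcc4 and Prkdc, were the only neighbors that did not overlap. The coefficient of variation of the 9 genes was 1.71 to 9.73% among GC pools (median 6.62%) and 5.42 to 27.8% among naive pools (median 13.1%). Over the 5874 genes of similar level, the median was 8.14% in GC and 9.74% in naive pools. Naive replicate 3 was the lowest naive pool for 6 of the 9 genes, and GC replicate 3 was the highest GC pool for 6 of the 9. The share of all genes with such an order was not computed. The median ratio of a gene to its mean over pools was 1.01, 1.02 and 0.946 in naive replicates 1 to 3. In GC replicates 1 to 3 it was 0.996, 1.02 and 1.01.

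Several of these genes start beside, or overlap, another gene on the opposite strand. The neighbors were chosen by position after the values of the 9 genes had been seen, and since no strand setting is stated for the quantification, reads of overlapping opposite genes may not be fully separated. Lig4 starts 37 bases from Abhd13, which stood at 12.6, 13.0 and 13.6 TPM in GC and at 15.0, 15.8 and 14.3 TPM in naive pools. Abhd13 was thus at a lower level in GC, opposite to Lig4, with a log2 fold change of -0.19 (limma adjusted p = 0.0760) that was called under 5 other settings, among them quantile normalization (-0.26, adjusted p = 0.00998). Prkdc starts 44 bases from Mcm4, a subunit of the replicative helicase, which stood at 163.3, 165.0 and 168.1 TPM in GC and at 25.8, 23.6 and 26.3 TPM in naive pools. The log2 fold change of Mcm4 was 2.67 (limma adjusted p = 2.81e-07), against 0.50 for Prkdc.

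Xrcc4 starts 59 bases from Tmem167, whose pools overlapped (17.5, 14.7 and 13.9 TPM in GC, 12.5, 13.4 and 14.2 TPM in naive) and which was not called (log2 fold change 0.18, limma adjusted p = 0.175). Desi1 lies whole (23736 bases) within the annotated span of Xrcc6, and the promoter-table start of Xrcc6 lies 111 bases from that of Desi1. From that start (82016369, plus strand), Xrcc6 does not overlap Desi1, which spans 81992523 to 82016258. Desi1 stood at 33.7, 28.4 and 41.9 TPM in GC and at 21.2, 19.0 and 17.8 TPM in naive pools and rose much like Xrcc6, with a log2 fold change of 0.80 (SE 0.15, limma adjusted p = 0.00321). Dclre1c shares 18397 bases with Suv39h2, a histone methyltransferase gene that stood at 10.8, 9.52 and 8.52 TPM in GC and at 1.27, 2.20 and 1.27 TPM in naive pools (log2 fold change 2.05, limma adjusted p = 9.12e-05). Trp53bp1 shares 3936 bases with Tubgcp4 (log2 fold change 0.44, limma adjusted p = 0.0303, a call lost under 5 alternatives, among them leaving out GC replicate 1, GC replicate 3 or naive replicate 3). The annotated span of Trp53bp1 also shares 6765 bases with Map1a (1.59, limma adjusted p = 0.000798). Map1a was weakly expressed, at 1.24 to 2.73 TPM in GC and 0 to 0.0270 TPM in naive pools. From its promoter-table start (121271407, minus strand), Trp53bp1 does not reach Map1a, which begins at 121289590. The part of these overlaps in the values of Dclre1c, Xrcc6 and Trp53bp1 was not tested.

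The stretches between the divergent starts are shown because in each of them 1 end joining gene and its neighbor face away from a short shared piece of DNA, with both genes called as higher in GC for Xrcc6 and Desi1 and the neighbor not called for Lig4 and Xrcc4. Sequences are from RefSeq (GRCm38.p6), 5′ to 3′ on the strand of the end joining gene, with matches to the motifs named in the next paragraph in capitals. They cover chr8:9977681-9977716 (minus strand) for Lig4 and Abhd13, chr13:90089609-90089666 (minus strand) for Xrcc4 and Tmem167, and chr15:82016259-82016368 (plus strand) for Xrcc6 and Desi1.
Lig4 and Abhd13: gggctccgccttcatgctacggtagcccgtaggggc
Xrcc4 and Tmem167: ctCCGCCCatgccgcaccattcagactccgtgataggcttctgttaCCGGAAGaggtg
Xrcc6 and Desi1: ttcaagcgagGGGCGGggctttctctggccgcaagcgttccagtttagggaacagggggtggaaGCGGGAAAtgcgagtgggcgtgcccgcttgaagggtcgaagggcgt
Lig4, the gene with the largest change, has a further annotated start, and the 250 bases before it (chr8:9976312-9976561, minus strand) read as follows.
Lig4 inner start: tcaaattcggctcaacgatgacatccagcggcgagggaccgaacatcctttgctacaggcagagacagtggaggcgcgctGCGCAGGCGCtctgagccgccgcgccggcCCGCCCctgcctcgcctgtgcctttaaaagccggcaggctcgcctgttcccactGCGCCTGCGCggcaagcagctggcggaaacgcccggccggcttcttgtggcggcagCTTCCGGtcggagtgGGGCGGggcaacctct

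Motif letters were searched on both strands of the 250 bases before each start, in 8 entries for 7 of the 9 genes (Lig4 has both its starts listed, and Prkdc and Rif1 were not searched) and in all 32851 promoters of the table. The NRF1 motif (GCGC, any base, then TGCGC) was present before both starts of Lig4 and in no other entry of the 9 genes, and in 3.74% of all promoters. The ETS motif CCGGAAG was present before both starts of Lig4 and before Xrcc4, whose levels moved in opposite directions, and in 6.91% of all promoters. Of the E2F motifs TTTCCCGC, TTTGGCGC, TTTCGCGC and TTTGCCGC, found in 1.86% of all promoters, Xrcc6 held the first, on the reverse strand 46 bases before its start. The GC box GGGCGG was present in 6 of the 8 entries and in 32.7% of all promoters, and the CCAAT box in 2 (Xrcc5 and Dclre1c) and in 33.8%. The letters TGACGTCA (CRE, 1.55% of all promoters) and TTTGAA (CHR, 16.0%) were in none of the 8. A match of letters is a description, not a binding site. The windows of Lig4, Xrcc4 and Xrcc6 were 65.2 to 70.0% G and C with 25 to 28 CpG each, whereas the median promoter was 52.4% with 6 CpG.

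Other genes of the same repair reactions were described as lists. Among accessory end joining factors, limma called 2 of 6 genes tested as higher in GC and 3 as higher in naive B cells. Over all genes tested these shares were 35.5% and 30.1%. The median log2 fold change of the list was -0.12. Xrcc1, a scaffold of single-strand break repair, rose from 32.0 to 35.6 TPM in naive to 203.8 to 212.9 TPM in GC pools (log2 fold change 2.59, limma adjusted p = 2.81e-07), and Aplf, which binds Ku, rose with 0.75 (limma adjusted p = 0.00206). Aptx, which repairs aborted ligations (-0.44, limma adjusted p = 0.00905), and Polm, a gap-filling polymerase (-0.42, limma adjusted p = 0.00242), were lower in GC, as was Xrcc4. Paxx was not analysed here, and Dntt did not reach the filter.

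Upstream of 53BP1, 5 of 8 genes tested were called as higher in GC, against 35.5% of all genes tested. The other 3 (Atm, Mdc1 and Rnf8) were not called, and the median log2 fold change was 0.61. Mdc1, an adaptor that reads phosphorylated H2AX (log2 fold change -0.17, limma adjusted p = 0.210), was called as lower in GC under 4 alternatives, with adjusted p of 0.0202 (without naive replicate 3) to 0.0472. Rnf8, a ubiquitin ligase, had a log2 fold change of 0.32 (limma adjusted p = 0.125) and was called as higher in GC without naive replicate 2 (0.48, 0.0150), while the value of Atm, the kinase that responds to breaks, was -0.13 and 0.11 without GC replicate 2. H2afx, the histone variant phosphorylated beside breaks, rose from 38.9 to 41.8 TPM in naive to 511 to 539.9 TPM in GC pools (log2 fold change 3.68, limma adjusted p = 8.57e-08). Nbn, of the complex that senses ends, rose with 0.87 (limma adjusted p = 9.38e-05).

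Downstream of 53BP1, 5 of 9 effector and shieldin genes tested were called as higher in GC, against 35.5% of all genes tested. The other 4 were not called, and the median log2 fold change was 0.37. Paxip1, which encodes the 53BP1 partner PTIP, rose with a log2 fold change of 1.60 (limma adjusted p = 7.99e-06) from 12.8 to 15.1 TPM in naive to 41.9 to 46.0 TPM in GC pools. Ctc1 (0.92, limma adjusted p = 0.000742) and Ten1 (0.41, limma adjusted p = 0.00150) encode subunits of the CST complex, which fills in trimmed ends, and Dynll1 (0.54, limma adjusted p = 0.00200) encodes a light chain that binds 53BP1. For the third CST gene, Stn1, naive replicates 1 to 3 stood at 9.56, 15.6 and 66.2 TPM and GC replicates at 24.0, 20.9 and 25.9 TPM. Stn1 was not called (log2 fold change 0.11, limma adjusted p = 0.896) but was called as higher in GC without naive replicate 3 (0.89, limma adjusted p = 0.0170), and its sign turned without naive replicate 1 or 2. Of the shieldin genes tested, only Mad2l2 was called, with a log2 fold change of 0.37 (limma adjusted p = 0.0357), and this call was lost under 9 alternatives with adjusted p of up to 0.120, among them leaving out GC replicate 1, GC replicate 3, naive replicate 1 or naive replicate 2. Shld1 (0.08, limma adjusted p = 0.415) and Shld2 (-0.18, limma adjusted p = 0.186) were not called, and neither was Nudt16l1, a 53BP1 inhibitor (0.05, limma adjusted p = 0.472). With the correction for base composition and length of transcripts, Shld2 was called as lower in GC (-0.30, limma adjusted p = 0.0420), Shld1 stood at -0.12 and Nudt16l1 at -0.013, both not called.

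The lists of the pathways that compete for unprotected ends had higher medians. In alternative end joining, 5 of 6 genes tested were called as higher in GC, against 35.5% of all genes tested, with a median log2 fold change of 1.86. Lig1, the replicative ligase, rose from 16.6 to 17.9 TPM in naive to 189 to 209 TPM in GC pools (log2 fold change 3.46, limma adjusted p = 1.59e-07), and the flap nuclease gene Fen1 rose with 2.34 (limma adjusted p = 6.02e-07). In homologous recombination, 14 of 16 genes tested were higher in GC and 1 was lower, against 35.5% and 30.1% of all genes tested. The median log2 fold change of this list was 2.27. Rad54b (4.77, limma adjusted p = 7.39e-06) and Rad54l (4.46, limma adjusted p = 1.66e-06), motor proteins of this pathway, rose the most, and Rad52, an annealing factor, was lower in GC (-0.60, limma adjusted p = 0.00444). Many genes of these pathways also serve DNA replication, and the proliferation genes given above were also higher in GC pools. Proliferation and cell population differ together between these groups, so that their parts cannot be told apart, and neither was tested. No test between the lists was made. The log2 fold change of Lig4 was the largest of the 9 end joining genes. That it lay nearest to the medians of these lists follows from this and is no separate result.

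**Figure D4:**
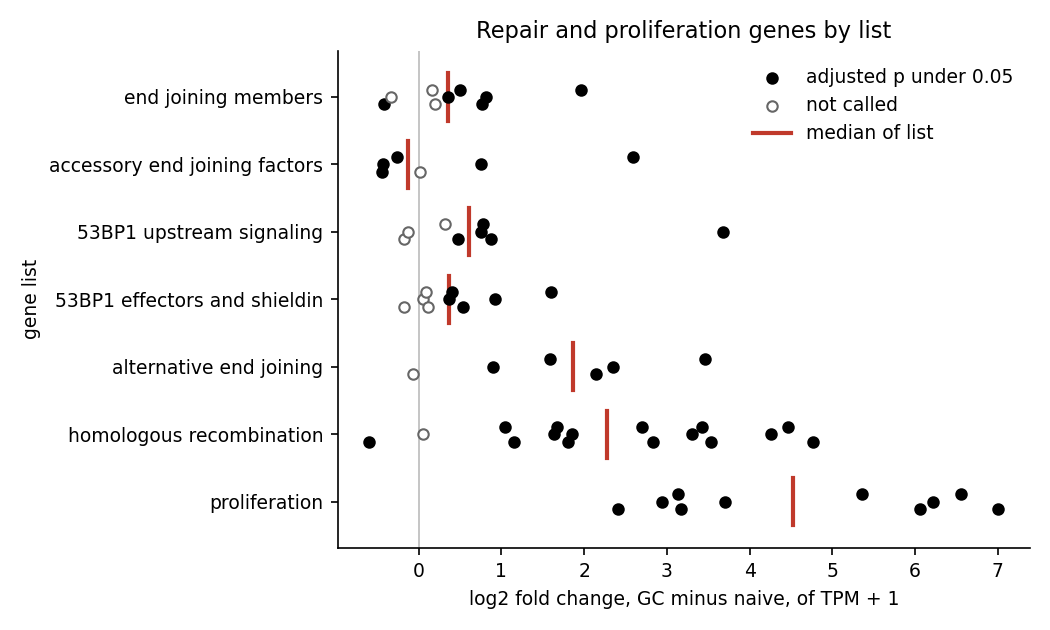
Log2 fold change (horizontal axis, GC minus naive, of TPM + 1) of each gene tested in 7 lists, with filled points for genes called by limma, open points for those not called, and red lines for the median. The medians are 0.35 for the 9 end joining genes, 1.86 for alternative end joining, 2.27 for homologous recombination and 4.53 for proliferation.

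Genes whose values were most like those of the end joining genes at the extremes were found by Euclidean distance over the 6 pools on the log2(TPM + 1) scale. For Lig4 they were Kif20b (distance 0.278), Ogfrl1 (0.305) and Mdm1 (0.359). For Xrcc4, the gene with the lowest log2 fold change, they were Zfp830 (0.227), Coq10b (0.293) and Zfp472 (0.315). Kif20b stood at 18.9 to 20.3 TPM in GC and 3.58 to 4.50 TPM in naive pools, near Lig4 in level and change, as a small distance requires. All 6 pools of a comparison enter this distance, so that it describes likeness in these pools alone.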

How the data were processed

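RNA-Seq of 3 GC and 3 naive B cell pools was analysed. Per the labels and methods, total RNA was made into libraries with the NEB Next Ultra kit and reads were demultiplexed with CASAVA 1.8, checked with FastQC and trimmed with cutadapt 1.9. The authors ran RSEM 1.2.25 against mouse transcripts of NCBIm38 v75, using a fragment length of 180 (SD 50), and deposited FPKM values per gene. The submitters' processing notes also name edgeR, for which no use on this table is stated. FPKM depends on the effective length assigned to each gene. No counts were given. Depth, estimated from the steps between low values, was about 9600000 to 15900000 reads per pool, but only 68.4 to 74.0% of those values lay within 0.15 of a whole read, so no count test was run and no counting intervals are given.

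FPKM was rescaled to TPM, log2(TPM + 1) was fitted with limma 3.58.1 (lmFit, eBayes with a trend, R 4.3.3), and p values were adjusted by Benjamini-Hochberg over 12785 genes. The fit was tested on simulated data. Ratios were compared by an exact permutation test (Python 3.11.15, numpy 2.4.6, pandas 2.3.3), and figures were drawn with matplotlib 3.10.9. The correction for base composition and length used a local smoother (lowess, statsmodels 0.14.6). Of 104 listed symbols 101 were matched, 8 of them by a synonym. Positions and promoters are from RefSeq (GRCm38.p6). The end joining genes, lists, tests and alternatives were chosen with earlier results of these data known. Named genes were the 9 end joining genes, the 2 largest called changes in each direction of every repair list, all 53BP1 effector and shieldin genes, the 3 genes most like Lig4 and Xrcc4, and neighbors by position. Atm, Mdc1, Rnf8, Prdm1 and Fas were named after their values had been seen. Alternatives covered the pseudocount, low-value filters, scaling, a replicate block, leaving out each pool, and correcting for base composition (GC content) and length of the transcripts, the last chosen after the data were seen. Some genes of the lists are not reported by name here.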

Additional observations from a re-analysis of the deposited data

How the results depend on the processing

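The 16 results (the count of genes called, the count of end joining genes called, the 9 log2 fold changes and the 5 ratios) were recomputed under 210 alternatives in all. Direction and side of the threshold, or a count within 1.5 times, were kept in 194 of them, a call was lost in 9 and gained in 5, and the sign turned in 2. All these changes were among the 9 log2 fold changes. A fall from 6 to 4 end joining genes called counted as kept, at the limit of the rule. Both turns were of Nhej1, at -0.025 when values were corrected for the GC content and length of transcripts, both without and with the replicate block. This correction was chosen after seeing the data, and the cause was not tested. For the ratios, the replicate block leaves the difference unchanged by construction. The 5 ratios were judged by direction alone in these counts, since no ratio could pass 0.05. Their exact permutation p was 0.2 for Rif1 to Trp53bp1 without GC replicate 1, 2 or 3. It was also 0.2 for Xrcc4 to Nhej1 without GC replicate 3. The end joining genes called numbered 4 to 7 across alternatives and 4 to 6 when 1 pool was left out, and all genes called numbered 6879 to 8639 and 7656 to 8101. The number of genes tested differed by setting. The share of them called ran from 41.4% of 20845 (no filter beyond a value above 0 in 1 pool) to 72.1% of 11031 (correction for GC content and length). It was 59.9 to 63.4% when 1 pool was left out. Where 7 end joining genes were called, the share was 66.7 to 72.1%. Xrcc5 was called only with a mean of at least 5 TPM (limma adjusted p = 0.0477), and Dclre1c under quantile normalization (0.0467), without naive replicate 3, and under the correction for GC content and length without (0.0159) and with (0.0216) the block. The scalings tried placed the median log2 fold change of all genes between -0.06 and 0.03.

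With the replicate number as a block, 5 end joining genes and 7960 genes in all (62.3% of those tested) were called, and Trp53bp1 lost its call (limma adjusted p = 0.0747). The methods do not say that equal numbers mark the same mice, so the main fit did not pair the pools by number. Residuals of same-numbered pools correlated by 0.083, 0.0225 and 0.0456, small values that do not decide whether the pools are paired. GC replicates 1 to 3 each correlated best with their own number, but naive replicate 2 correlated better with GC replicate 3 (0.0298). In the block, the 5 ratios were tested by an exact sign-flip test whose smallest p is 0.25. The number of pools and the missing counts limit the precision, and the interval of Xrcc5 (0.01 to 0.38) shows the size of change left undecided.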
